A study of Homo sapiens with 6 samples.

Results

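The monocarboxylate transporters of the SLC16 family and basigin (BSG), the membrane glycoprotein that escorts several of them to the cell surface, were followed in U87, a long-established cell line from a human glioblastoma. The 9 genes are SLC16A1, SLC16A3, SLC16A4, SLC16A5, SLC16A6, SLC16A7, SLC16A9, SLC16A10 and BSG, found by gene name among the 60671 genes of the expression table. They were chosen by name, with their expression values in these same 6 libraries and the difference between the groups already known. Their values are therefore given as a description, with no p value, and how many of them met the call used for all genes is set only beside the share of all genes that met it. In the rutaecarpine group, 3 libraries came from U87 cells kept for 48 h in serum-free medium with 100 µM rutaecarpine, an alkaloid of the Evodia fruit that the study examined as an agonist of the aryl hydrocarbon receptor (AhR). In the solvent control group, 3 libraries came from cells kept for the same time with DMSO alone. Both groups received DMSO at 0.1%. All libraries are of 1 cell line and 1 dose, and the labels do not say whether the replicates were separate cultures, so the p values measure only the spread between these samples, which may be technical.

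SLC16 proteins are carriers of small molecules across membranes. The proteins of SLC16A1 (MCT1), SLC16A7 (MCT2) and SLC16A3 (MCT4) move lactate, pyruvate and ketone bodies together with a proton, and glycolytic tumor cells depend on them to export lactate. Other members carry thyroid hormones, aromatic amino acids, carnitine or creatine, and several have no settled substrate.

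Levels were read in TPM (transcripts scaled to a fixed total per library), which divide the reads of a gene by its transcript length, so that levels of different genes can be set side by side within a library. Read numbers cannot be recovered from TPM, so the depth of the libraries and the counting error of the values are not known. In RNA from whole cultures, fewer cells of a kind and less RNA per cell cannot be told apart. The glial and neural marker list summed to 24.0 to 26.2 TPM in the control libraries and 20.1 to 22.7 TPM in the rutaecarpine libraries, with 3 of its 6 genes reaching 1 TPM and the astrocyte channel gene AQP4 listed at 0. Those 3 did not move together, since NES was 19.5 ± 2.01 and 13.2 ± 0.751 TPM, OLIG2 1.59 ± 0.129 and 3.63 ± 0.524 TPM, and GFAP 3.98 ± 0.795 and 4.67 ± 0.940 TPM (SD, n = 3 each). The mesenchymal list (VIM, CD44, FN1, SPARC) summed to 12846 to 15650 TPM and 8889 to 9609 TPM. VIM, FN1 and SPARC were lower in every rutaecarpine library than in every control library. CD44 overlapped between the groups, at 655 ± 210 and 756 ± 135 TPM (SD, n = 3 each). Its log2 difference of 0.25 turned to -0.050 without control replicate 3. The list for immune, endothelial, epithelial and neuronal cells summed to at most 3.67 TPM. The part of the difference in the mesenchymal sum in the results below was not tested. Control replicate 3 stood apart, with a median log2(TPM + 1) over the tested genes of 3.56 against 3.95 and 3.97 in the other control libraries and 3.81 to 4.00 in the rutaecarpine libraries. Differences of the expressed members are therefore also given without it, as are several of other genes.

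Of the 9 genes, 5 were expressed at 1 TPM or more in all 6 libraries (SLC16A1, SLC16A3, SLC16A6, SLC16A7 and BSG). The other 4 (SLC16A4, SLC16A5, SLC16A9 and SLC16A10) stayed below the filter of 1 TPM in at least 3 libraries. Across all 14377 genes that passed this filter, 2.01% were called higher after rutaecarpine and 1.5% lower, where a call needs a limma adjusted p of at most 0.05 and a log2 difference beyond 1 in either direction. Among the 5 expressed members, SLC16A6 was called higher and 0 were called lower. The 3 rutaecarpine libraries lay above all 3 control libraries for 19.3% of the tested genes and below all of them for 14.0%. SLC16A6 was of the first kind and BSG of the second, and the groups overlapped for SLC16A1, SLC16A3 and SLC16A7. The median log2 difference of the 5 was 0.040, beside 0.08 over all tested genes. Since the members were chosen with this contrast known, nothing is read from these counts.

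**Figure D1:**
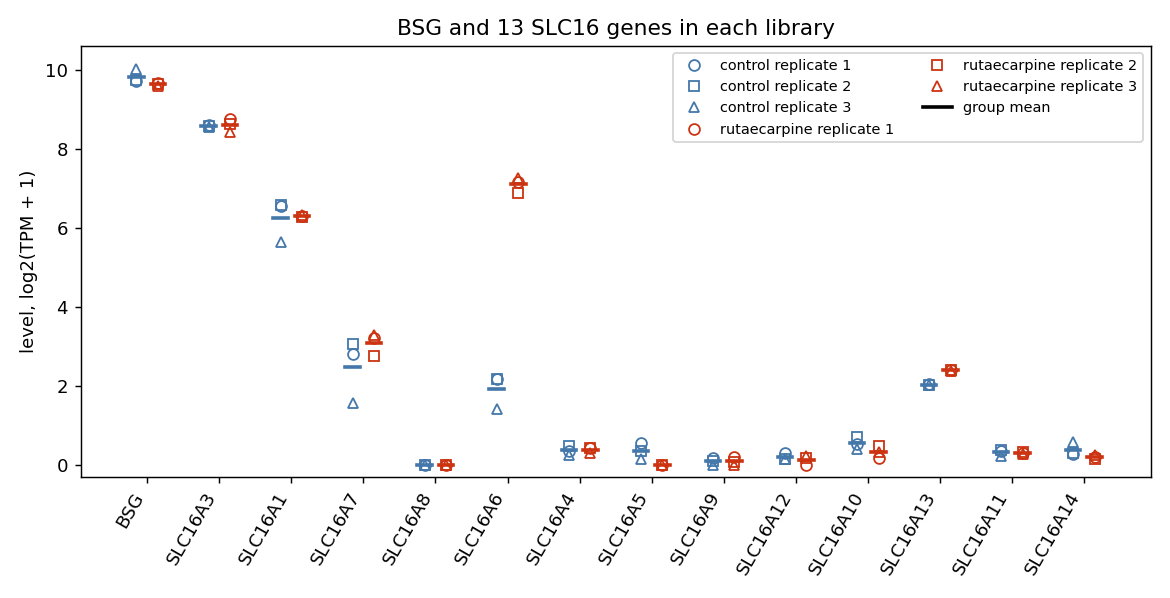
Level of BSG and of 13 SLC16 genes in each library, as log2(TPM + 1), with 1 symbol per library (blue, control; red, rutaecarpine) and a bar at the mean of each group. SLC16A6 moves from the low part of the plot in the control group to above SLC16A1 in all 3 rutaecarpine libraries, and BSG and SLC16A3 are the highest in both groups.

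SLC16A6 (ENSG00000108932) encodes MCT7, whose zebrafish counterpart exports the ketone body β-hydroxybutyrate from the liver. Its level was 3.47, 3.46 and 1.67 TPM in control replicates 1 to 3 and 142, 116 and 153 TPM in rutaecarpine replicates 1 to 3. Every rutaecarpine library was far above every control library, and the lowest rutaecarpine value was 33.4 times the highest control value. The group means were 2.87 ± 1.04 TPM (SD, n = 3) in the control group and 137 ± 18.9 TPM (SD, n = 3) in the rutaecarpine group, a ratio of 47.8. On the log2(TPM + 1) scale the difference was 5.19 with a standard error of 0.23, and it was 4.94 without control replicate 3, in which SLC16A6 was lowest. By the size of this difference SLC16A6 was number 2 of the 14377 tested genes. Its mean level lay at percentile 17.5 of the tested genes in the control group and at percentile 92.9 after rutaecarpine, so a weakly expressed carrier gene of the solvent-treated cells was among the more strongly expressed genes of the treated cells. Over the 12 alternative settings its log2 difference ranged from 4.94 to 5.59.

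SLC16A6 lies on the minus strand of chromosome 17 at chr17:68267026-68291267 (GRCh38, GENCODE release 29). A transcribed pseudogene, SLC16A6P1 (ENSG00000232457), lies on the plus strand at chr17:64953683-64956546 and is 97.3% identical to SLC16A6 over 1059 aligned bases. Reads from such a copy are split between both genes by the quantification, so the sequences below show how alike they are. Both are 90-base stretches written 5′ to 3′ from the reference transcripts, with the 3 bases at which they differ in capitals. That of SLC16A6 is at chr17:68271237-68271326, on the minus strand, and covers bases 834 to 923 of its coding sequence. That of SLC16A6P1 is at chr17:64954006-64954095, on the plus strand.
SLC16A6: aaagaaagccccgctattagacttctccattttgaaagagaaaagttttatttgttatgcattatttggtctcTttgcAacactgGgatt
SLC16A6P1: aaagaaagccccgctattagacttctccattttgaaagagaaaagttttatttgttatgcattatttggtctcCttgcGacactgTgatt

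Of the 4170 distinct stretches of 31 bases in the SLC16A6 transcripts, 499 (12.0%) also occur in SLC16A6P1, which makes up 48.5% of the stretches of the pseudogene. The pseudogene was listed at 0.18, 0.64 and 0 TPM in the control libraries and at 0.16, 0.08 and 0.17 TPM in the rutaecarpine libraries. It stayed below 1 TPM in every library while SLC16A6 exceeded 100 TPM in the treated ones. Within the family itself SLC16A6 transcripts shared 0 stretches of 31 bases, on either strand, with the annotated transcripts of the 12 other SLC16 genes compared here. Identity of coding sequences was taken over the longer of the pair after a gapped alignment, so it is not comparable with the 97.3% over aligned bases. By this measure the coding sequence of SLC16A6 was 45.8% to 53.2% identical to theirs, a narrow range with SLC16A1 at its top. The closest pairs among these 13 genes were SLC16A3 with SLC16A8 (64.6%), SLC16A1 with SLC16A7 (62.0%) and SLC16A5 with SLC16A8 (59.1%).

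The whole SLC16A6 gene, 24242 bp long, lies within ARSG (arylsulfatase G, a lysosomal enzyme that removes sulfate groups from heparan sulfate), which runs on the opposite strand at chr17:68259182-68422731. In the annotation, 3 ARSG transcripts start 224, 228 and 251 bp upstream of the SLC16A6 start and run away from it. ARSG was 3.21, 3.31 and 3.44 TPM in the control libraries and 10.1, 9.50 and 11.0 TPM after rutaecarpine, with no overlap between the groups. It rose from 3.32 ± 0.115 to 10.2 ± 0.734 TPM (SD, n = 3 each), a log2 difference of 1.37 with a standard error of 0.15 and a limma adjusted p of 0.00216 (Benjamini-Hochberg over the 14377 tested genes), and it was called higher under all 12 alternative settings. The exons of both genes overlap by 144 bp, all of it in 1 ARSG transcript. Whether the libraries keep the strand is not given in the sources used here, so reads in that overlap cannot be told apart between the genes. SLC16A6 read 1.08, 1.05 and 0.485 times the ARSG level in the control libraries and 14.1, 12.2 and 13.9 times after rutaecarpine. The SLC16A6 level was thus close to or below that of ARSG in the control group and more than 10 times above it in every treated library.

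**Figure D2:**
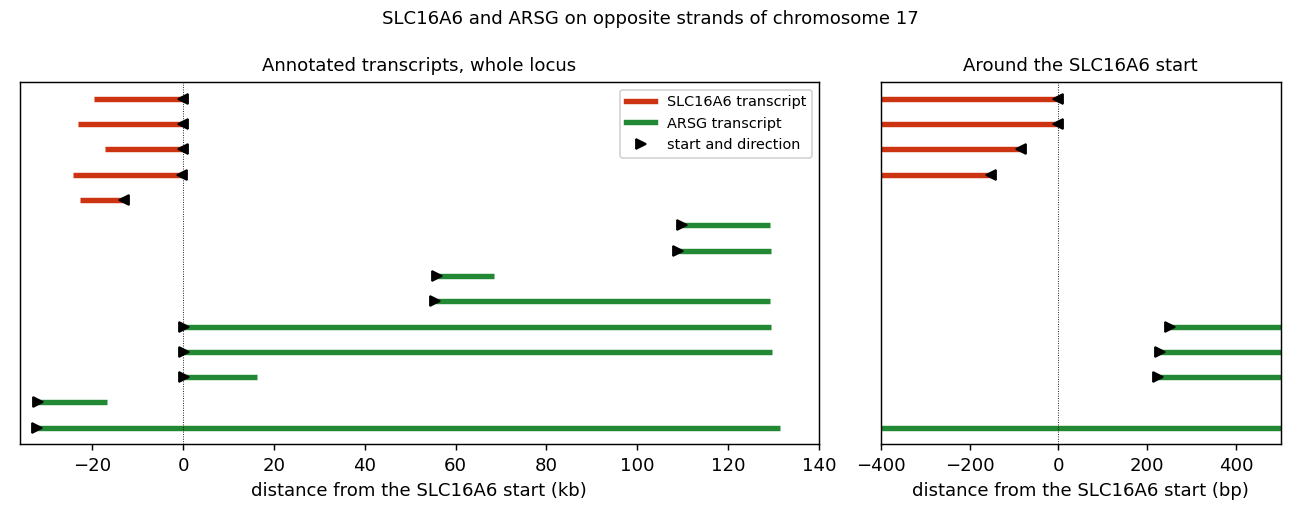
Annotated transcripts of SLC16A6 (red) and ARSG (green) by distance from the SLC16A6 start, over the whole locus in kb (left) and around the start in bp (right), with arrowheads at each start pointing in the direction of transcription. The genes run on opposite strands, and 3 ARSG transcripts begin 224 to 251 bp from the SLC16A6 start.

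Beyond this pair, the next protein-coding genes were WIPI1 and AMZ2. WIPI1, which encodes an autophagy protein and overlaps the far end of ARSG, rose from 104 ± 8.43 to 195 ± 17.1 TPM (SD, n = 3 each), with a log2 difference of 0.90 and a limma adjusted p of 0.00258 (Benjamini-Hochberg). Genes are said to have risen or fallen where the adjusted p was at most 0.05, also where the log2 difference stayed within 1. AMZ2, a metalloprotease gene on the other side, was 66.5 ± 2.70 and 78.2 ± 3.70 TPM, with a log2 difference of 0.23 and a limma adjusted p of 0.149.

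Over the 6 libraries, the genes whose log2(TPM + 1) followed SLC16A6 most closely were DIRAS1 (Pearson's r of 0.9995), TNFRSF1B (0.9995), TFPI2 (0.9991), ICAM1 (0.9988) and ENSG00000287365 (0.9987). Of 14376 genes compared, 112 had an r above 0.99. These correlations are descriptions over 3 control and 3 rutaecarpine libraries, which share the treatment. DIRAS1 was 15.3 to 16.5 TPM in the control libraries and 28.4 to 29.9 TPM after rutaecarpine, TNFRSF1B, a receptor of tumor necrosis factor, 26.1 to 28.7 and 53.9 to 58.4 TPM, and ICAM1, an adhesion molecule, 16.4 to 19.5 and 47.1 to 50.8 TPM. In each of these genes, as in SLC16A6, control replicate 3 held the lowest value. They were picked for following SLC16A6 over these same libraries, and control replicate 3 was low over the tested genes. The shared low value is therefore no separate likeness.

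SLC16A3 (ENSG00000141526, chr17:82228397-82261129, plus strand) encodes MCT4, the lactate exporter of glycolytic cells, and was the most strongly expressed SLC16 gene in all 6 libraries. Its level was 384, 383 and 375 TPM in the control libraries and 427, 394 and 342 TPM in the rutaecarpine libraries. The control libraries lay close together inside the range of the rutaecarpine libraries, so the groups overlapped. The means were 381 ± 4.88 and 387 ± 42.7 TPM (SD, n = 3 each), at percentile 97.6 of the tested genes in both groups. The log2 difference was 0.019 with a standard error of 0.09, and 0.0082 without control replicate 3. Its sign turned when each library was centred on its own median (-0.074) or when rutaecarpine replicate 1 was omitted (-0.053). Of its 8995 exonic bases, 482 overlap CSNK1D, a casein kinase gene on the opposite strand, which was 87.5 ± 10.5 and 105 ± 5.59 TPM (log2 difference 0.27, limma adjusted p = 0.185).

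SLC16A1 (ENSG00000155380, chr1:112911847-112957013, minus strand) encodes MCT1, which moves lactate in either direction. Its level was 93.0, 93.4 and 49.1 TPM in the control libraries and 77.6, 75.9 and 79.0 TPM in the rutaecarpine libraries. The rutaecarpine libraries lay between control replicate 3, which was low, and the other control libraries, which were high. The means were therefore nearly alike, 78.5 ± 25.5 and 77.5 ± 1.56 TPM (SD, n = 3 each), and the log2 difference was 0.040 with a standard error of 0.24. Without control replicate 3 the difference was -0.26, with both remaining control libraries above all 3 rutaecarpine libraries, and with centred libraries it was -0.053. Its direction thus turned with 1 control library and with the centring, and the ratio of the TPM means was 0.987. The antisense gene SLC16A1-AS1 shares 175 of the 5312 exonic bases of SLC16A1 and was 2.82 to 6.36 TPM over the 6 libraries, with overlap between the groups.

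SLC16A7 (ENSG00000118596, chr12:59596067-59789855, plus strand) encodes MCT2, which takes up lactate and pyruvate with high affinity and serves neurons in the brain. Its level was 6.03, 7.34 and 1.96 TPM in the control libraries and 8.26, 5.74 and 8.71 TPM after rutaecarpine. The groups overlapped, and control replicate 3 was again the lowest library. The means were 5.11 ± 2.81 and 7.57 ± 1.60 TPM (SD, n = 3 each), and the log2 difference of 0.60, with a standard error of 0.40, was 0.14 without control replicate 3.

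BSG (ENSG00000172270, chr19:571277-583493, plus strand) is no carrier but the chaperone that MCT1 and MCT4 need to reach the plasma membrane. Its level was 839, 848 and 1029 TPM in the control libraries and 815, 802 and 772 TPM in the rutaecarpine libraries. All rutaecarpine libraries lay below all control libraries, by a narrow margin, with control replicate 3 highest of the 6. The means were 905 ± 107 and 796 ± 22.4 TPM (SD, n = 3 each), and BSG stayed near percentile 99 of the tested genes, at 98.9 and 98.8. The log2 difference was -0.18 with a standard error of 0.10, -0.084 without control replicate 3 and -0.27 with centred libraries. Each library thus held more BSG than the summed SLC16 transcripts, with 1.71, 1.72 and 2.38 BSG transcripts per SLC16 transcript of the 13 genes in the control libraries and 1.24, 1.34 and 1.31 after rutaecarpine.

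The remaining members were near the lower end of what the table records to 2 decimals. SLC16A4 (chr1:110362848-110391082), which encodes MCT5, a carrier without a settled substrate, was 0.28, 0.39 and 0.19 TPM in the control libraries and 0.33, 0.34 and 0.22 TPM after rutaecarpine. SLC16A10 (chr6:111087503-111231194), which encodes the aromatic amino acid carrier TAT1, was 0.43, 0.63 and 0.32 TPM against 0.12, 0.40 and 0.25 TPM. In both genes the groups overlapped. SLC16A9 (chr10:59650761-59736002), whose protein carries carnitine, was at most 0.14 TPM and was listed at 0 in replicate 3 of each group. SLC16A5 (chr17:75087727-75106162), which encodes MCT6, a carrier of drugs such as bumetanide, was 0.47, 0.27 and 0.10 TPM in the control libraries while each of the 3 rutaecarpine libraries lists it at 0. No fold is given for these genes, since the reads behind such values are unknown.

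From outside the member list, 5 more SLC16 genes were examined. SLC16A13, whose protein MCT13 transports lactate, was 3.02 to 3.13 TPM and 4.17 to 4.30 TPM, with a log2 difference of 0.36 and a limma adjusted p of 0.190 (Benjamini-Hochberg). SLC16A11, SLC16A12 and SLC16A14 did not reach 0.5 TPM in any library, and SLC16A8, the carrier gene of the retinal pigment epithelium, was listed at 0 in all 6. Thus the same number of SLC16 genes, 5 of 13, reached 1 TPM in every library of both groups.

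**Figure D3:**
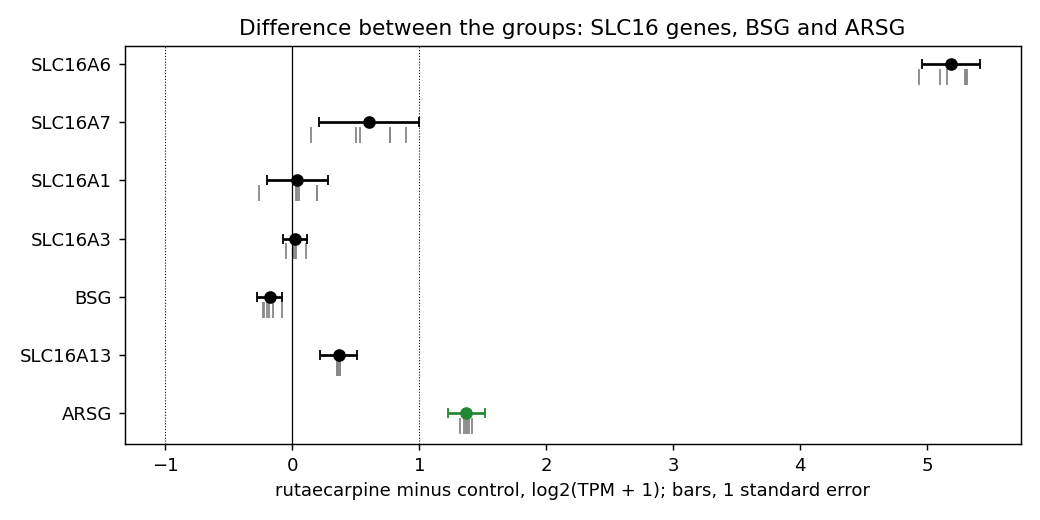
Difference between the groups (rutaecarpine minus control) on the log2(TPM + 1) scale for 5 SLC16 genes that passed the filter, BSG and ARSG, as points with bars of 1 standard error, with short grey ticks at the values found with any 1 library omitted and dotted lines at -1 and 1. SLC16A6 lies at 5.19 and its ticks stay at 4.94 or above, while the ticks of SLC16A1 and SLC16A3 fall on both sides of 0.

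The make-up of SLC16 expression followed from these levels. In each control library the order among these 13 genes was SLC16A3 and SLC16A1, followed in varying order by SLC16A7, SLC16A6 and SLC16A13, whose values overlapped one another across the control libraries. In each rutaecarpine library the order was SLC16A3, SLC16A6, SLC16A1, SLC16A7 and SLC16A13, and SLC16A6 had moved from rank 4, 4 and 5 to rank 2 in all 3. No rutaecarpine value of SLC16A6 overlapped those of SLC16A1 or SLC16A3. SLC16A6 read 0.0361 ± 0.00183 times the SLC16A1 level in the control group and 1.76 ± 0.211 times in the rutaecarpine group (SD, n = 3 each).

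The TPM of the 13 SLC16 genes summed to 492, 492 and 432 in the control libraries and to 660, 597 and 587 in the rutaecarpine libraries. All 3 rutaecarpine sums lay above all control sums. The means were 472 ± 34.5 and 615 ± 39.4 TPM (SD, n = 3 each), a ratio of 1.30, which ranged from 1.25 to 1.33 with any 1 library omitted and was 1.21 relative to the median level of the tested genes. Without SLC16A6 the sums were 469 ± 33.4 and 478 ± 41.5 TPM and overlapped. SLC16A6 made up 0.705%, 0.703% and 0.386% of the sum in the control libraries and 21.6%, 19.4% and 26.0% after rutaecarpine. The share of SLC16A3 was 80.9% ± 5.10 and 62.9% ± 4.16, and that of SLC16A1 16.4% ± 4.38 and 12.6% ± 0.848 (SD, n = 3 each). The lactate carriers SLC16A3 and SLC16A1 together held 97.3% of the sum in the control group and 75.6% in the rutaecarpine group. The SLC16A3 level was 4.13, 4.10 and 7.64 times that of SLC16A1 in the control libraries and 5.50, 5.19 and 4.33 times after rutaecarpine, with overlap.

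**Figure D4:**
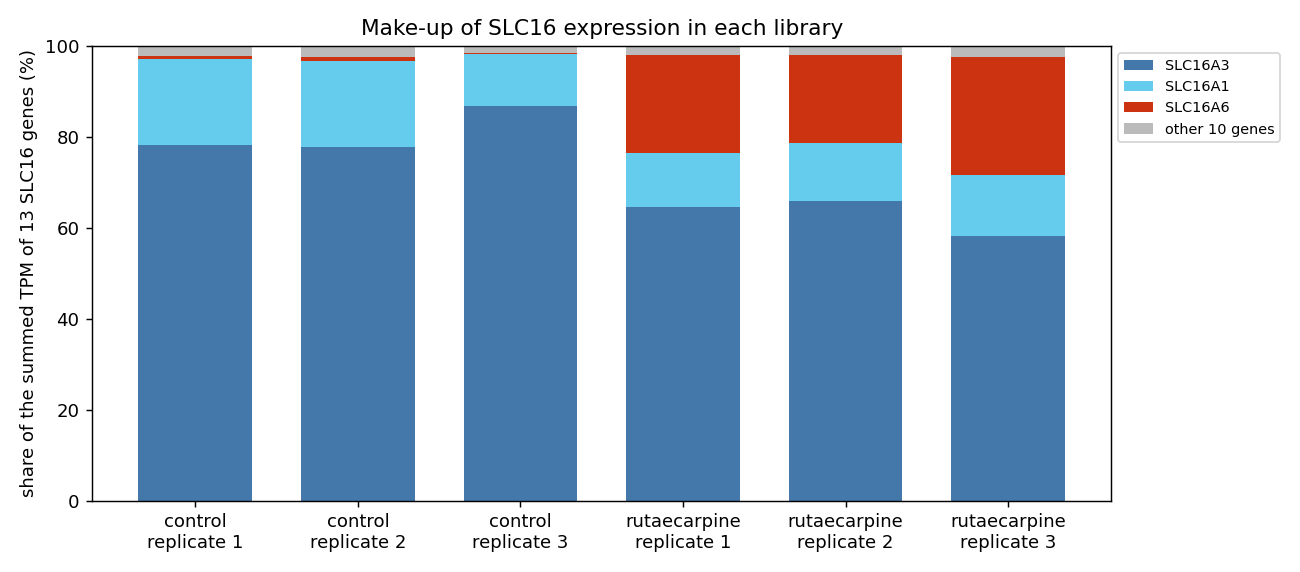
Share of each SLC16 gene in the summed TPM of the 13 SLC16 genes, in percent, with 1 bar per library. The SLC16A6 block is under 1% in the control libraries and 19.4% to 26.0% in the rutaecarpine libraries, and SLC16A3 is the largest block in all 6.

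The study addressed activation of AhR, which binds DNA with the core GCGTG. Promoter windows of 300 bases (RefSeq, GRCh38.p14) were found for 6 of the 9 members, and SLC16A1, SLC16A5 and SLC16A6 had none in the table used. The motifs counted on both strands were GCGTG, which 36.5% of all 35116 promoter windows held, its longer form TNGCGTG, which contains GCGTG and was held by 5.51%, and ACGTG, the core bound by hypoxia-inducible factors, held by 21.4%. Among the members TNGCGTG was found only in 1 of the windows of BSG, chr19:572346-572645, which also held GCGTG 4 times and ACGTG 2 times. Matches on both strands were added, so the single BSG site cacgtg, which reads alike on both strands, gives both ACGTG matches. Whether the other ACGTG counts of 2 come from such a site was not examined. ACGTG was also found 2 times in 1 window of SLC16A3, 2 times in 1 window of SLC16A9 and once in the window of SLC16A10. GCGTG was also found 3 times in 1 and once in another of the 5 windows of SLC16A3, once in each of the 2 windows of SLC16A9 and once in the window of SLC16A10. The windows of SLC16A4 and SLC16A7 held none of these motifs. A match describes the letters only, and binding was not measured here. The 60 bases of the BSG window around its longer motif, chr19:572402-572461 on the plus strand, are shown because this is the match among the members, with TNGCGTG in capitals.
BSG: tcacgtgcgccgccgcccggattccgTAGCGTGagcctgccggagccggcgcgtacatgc

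Genes that handle the substrates of these carriers were taken from 7 lists, all of whose genes were in the table. The lists were chosen with earlier results of these data known. Their counts of calls stand beside the 2.01% called higher and 1.5% called lower over all tested genes, and nothing is read from these counts. Of the lactate and pyruvate list, 17 of 18 genes were tested and 0 were called in either direction, with a median log2 difference of -0.00 beside 0.08 over all genes. Lactate dehydrogenase A (LDHA), which makes lactate from pyruvate, was 2416, 2268 and 2070 TPM in the control libraries and 2086, 1892 and 1733 TPM after rutaecarpine, with overlap and a log2 difference of -0.24 (limma adjusted p = 0.194, Benjamini-Hochberg). Its partner LDHB was 512 ± 9.97 and 503 ± 28.0 TPM. MPC2, a subunit of the mitochondrial pyruvate carrier, was the gene of this list with an adjusted p under 0.05, rising from 33.1 ± 1.27 to 45.9 ± 3.43 TPM (SD, n = 3 each), a log2 difference of 0.46 (limma adjusted p = 0.0318). Its adjusted p was at most 0.05 in 4 of the 12 alternatives and was 0.252 with centred libraries, so this rise depended on the setting. Of the ketone body list, 4 of 5 enzymes were tested and 0 were called. BDH1, which interconverts acetoacetate and β-hydroxybutyrate, was 1.23 ± 0.196 and 2.91 ± 0.803 TPM with a log2 difference of 0.80 (limma adjusted p = 0.0580). OXCT1, an enzyme of ketone body use, was 36.5 ± 11.5 and 26.7 ± 3.30 TPM and ACAT1 31.9 ± 4.67 and 33.8 ± 3.57 TPM, with limma adjusted p values of 0.386 and 0.741. Without control replicate 3 the log2 difference of OXCT1 was -0.68 in place of -0.39 (limma adjusted p = 0.00804).

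The thyroid hormone and aromatic amino acid list, which concerns substrates of SLC16A10, had 7 of 10 genes tested and 2 called higher. Both form one amino acid exchanger. SLC7A5 (LAT1), its transport subunit, rose from 46.5 ± 5.96 to 113 ± 9.87 TPM, a log2 difference of 1.26 (limma adjusted p = 0.00156), and SLC3A2 (4F2hc), the subunit that escorts it to the membrane, rose from 189 ± 45.3 to 594 ± 75.8 TPM, a log2 difference of 1.67 (limma adjusted p = 0.00246). Both calls held under all 12 alternatives. SLC3A2 escorts LAT1 as BSG escorts MCT1 and MCT4, and its log2 difference of 1.67 stands beside -0.18 for BSG. THRA, a thyroid hormone receptor, fell from 20.6 ± 0.879 to 14.0 ± 1.54 TPM, a log2 difference of -0.54 (limma adjusted p = 0.0465), and its adjusted p was at most 0.05 in 5 of the 12 alternatives.

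Of the creatine and carnitine list, 8 of 12 genes were tested and 0 were called. GAMT, the last enzyme of creatine synthesis, fell from 52.2 ± 7.53 to 29.3 ± 1.20 TPM (log2 difference -0.80, limma adjusted p = 0.00907), and CKB, the brain creatine kinase, fell from 18.5 ± 5.18 to 8.96 ± 0.964 TPM (log2 difference -0.95, limma adjusted p = 0.0332). The adjusted p of GAMT was at most 0.05 in 10 of the 12 alternatives and that of CKB in 4, with 0.0600 for CKB in centred libraries. SLC6A8, the creatine carrier, was 135 ± 16.6 and 121 ± 12.0 TPM and CRAT, carnitine acetyltransferase, 78.6 ± 2.14 and 77.6 ± 2.74 TPM, with limma adjusted p values of 0.481 and 0.896. Of the list of pH partners, which remove or buffer the protons that MCT proteins carry, 5 of 7 genes were tested and 0 were called. The carbonic anhydrase CA9 fell from 498 ± 7.99 to 289 ± 40.2 TPM (log2 difference -0.79, limma adjusted p = 0.00594). CA12, a further carbonic anhydrase, was 374 ± 104 and 406 ± 69.2 TPM, with a log2 difference of 0.15 that turned to -0.11 without control replicate 3 (limma adjusted p = 0.731 and 0.622). Of the other chaperones and sodium-coupled monocarboxylate carriers, 1 of 5 genes was tested and 0 were called. NPTN, a chaperone related to BSG, was 134 ± 32.9 and 149 ± 11.8 TPM (limma adjusted p = 0.595), with a log2 difference of 0.18 that turned to -0.042 without control replicate 3, and EMB, the chaperone of MCT2, was at most 0.03 TPM.

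Of the 10 regulators listed, 9 were tested and 1 was called, higher. NFE2L2, which encodes the oxidative stress factor NRF2, rose from 47.4 ± 6.43 to 108 ± 12.1 TPM, a log2 difference of 1.18 (limma adjusted p = 0.00282). The study already lists NFE2L2, SLC7A5 and SLC3A2 among the up-regulated migration-related genes of this sequencing. MYC fell from 56.8 ± 1.30 to 35.5 ± 3.17 TPM, a log2 difference of -0.67 (limma adjusted p = 0.00785). EPAS1, which encodes a hypoxia-inducible factor, was 264 ± 52.5 and 180 ± 21.1 TPM, with a log2 difference of -0.53 (limma adjusted p = 0.102) that was -0.71 without control replicate 3 (limma adjusted p = 0.00357). AHR was 71.6 ± 36.1 and 72.5 ± 15.4 TPM (limma adjusted p = 0.846) and HIF1A 228 ± 71.5 and 235 ± 33.5 TPM (limma adjusted p = 0.863), in both cases with control replicate 3 lowest of the 6 libraries. Without it the control means were 92.3 and 269.5 TPM, and the log2 differences turned from 0.16 to -0.37 for AHR and from 0.082 to -0.21 for HIF1A (limma adjusted p = 0.186 and 0.274). The plot of the lists shows these genes among the others.

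**Figure D5:**
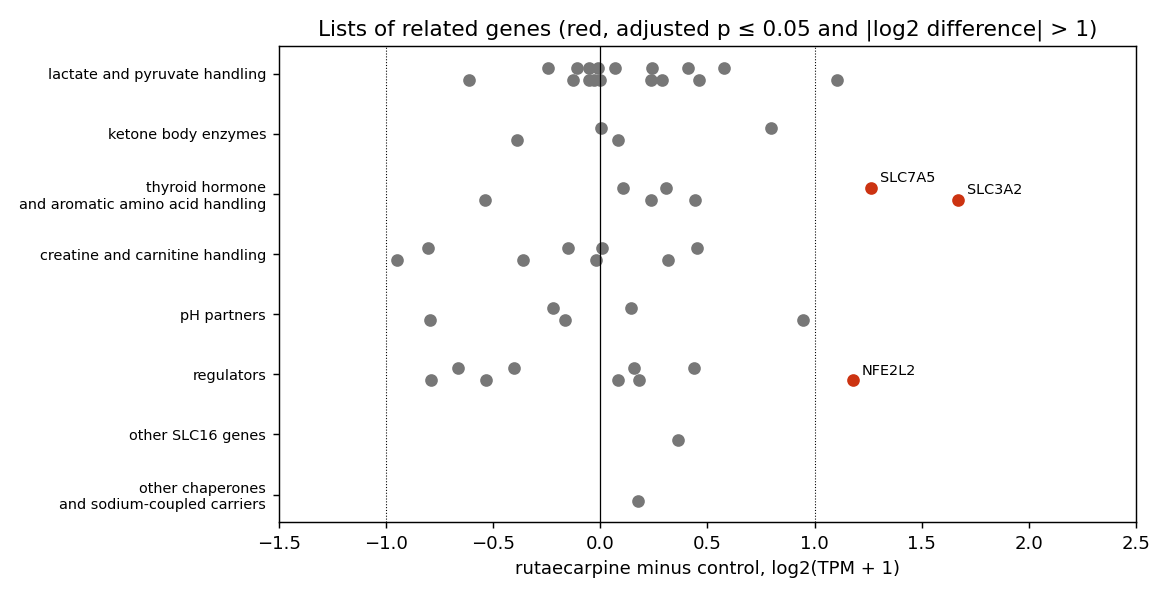
Log2 difference (rutaecarpine minus control, on the log2(TPM + 1) scale) of each tested gene of 8 lists, with 1 point per gene, dotted lines at -1 and 1, and red points for genes called by limma. The called genes are SLC7A5, SLC3A2 and NFE2L2, all to the right of 1. The genes of lactate and pyruvate handling have a median near 0, with PDP1 beyond 1 but not called.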

How the data were processed

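RNA of U87 cells was sequenced in 3 control and 3 rutaecarpine libraries, grouped by the sample labels. The deposited values are TPM, which the authors computed with RSEM. The submitters' processing notes also name DESeq2, edgeR and GRCh38.p13. The aligner and the annotation are not given in the sources used here. All 6 columns were matched to samples and 0 columns were left unmatched. RSEM divides reads between similar or overlapping genes, so values of such genes are uncertain.

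The groups were compared with limma 3.58.1 in R 4.3.3 on log2(TPM + 1), after keeping genes with at least 1 TPM in at least 3 libraries (two-sided, mean-variance trend, Benjamini-Hochberg adjustment over 14377 genes, no normalization between libraries). This scale understates changes of weakly expressed genes. A gene was called where the adjusted p did not exceed 0.05 and the log2 difference exceeded 1 in size, after the thresholds of the study's methods. The test was tried on simulated data first. With 3 libraries against 3, an exact two-sided permutation test cannot reach 0.05. In limma the variance of each gene is moderated toward a trend fitted over all genes, so standard errors differ by gene. Gene positions and coding sequences came from GENCODE release 29 on GRCh38, and promoters from RefSeq on GRCh38.p14.

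The members and the gene lists were chosen with earlier results of these data known. Genes named are the members, 5 other SLC16 genes, list genes that were called or among the 3 highest in level of their list, genes overlapping a member or next to SLC16A6, and the 5 genes most alike to SLC16A6. SLC16A6P1, MPC2, PDP1, BDH1, THRA, CKB, MYC, AHR and PPARGC1A were named after their values were seen. Some genes of the family and lists are not reported here and were left out of list counts and family sums. The alternatives were a pseudocount of 0.1, other filters, centring on medians, no trend, a replicate block and leaving out each library.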

Additional observations from a re-analysis of the deposited data

How the results depend on the processing

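Of the 283 comparisons of a result with an alternative setting, 274 were kept, 5 counts moved and 4 differences changed sign. This tally covers counts of calls, the family sum and the differences of SLC16A1, SLC16A3, SLC16A6, SLC16A7, BSG, SLC16A13, SLC7A5, SLC3A2, NFE2L2, ARSG and WIPI1. Other genes are outside it, among them AHR, HIF1A, CA12, NPTN and CD44, whose signs also turned. A result was kept where direction and call held, or where a count stayed within 1.5 times. The ratio of the family sum was kept where it moved by less than its SD of 0.13. Kept results include counts that stayed at 0. They also include SLC16A7, whose log2 difference of 0.60 was 0.14 without control replicate 3. Over all genes, 216 were called lower, 125 with the replicate block and 330 without control replicate 3 (153 to 330 when each library was left out), and 289 were called higher (195 to 280). The correlations of same-numbered deviations across genes were 0.116, -0.266 and -0.215, and those of other pairs ranged from -0.295 to 0.387. With 3 libraries per group these values cannot decide whether replicate numbers pair the samples, and the labels do not say. The block changed no count of calls among the members or the lists. With centred libraries 1 lactate and pyruvate gene was called (PDP1), with a pseudocount of 0.1 1 creatine gene (CKB), and without control replicate 3 2 regulators (NFE2L2 and PPARGC1A, range 1 to 2). Within the tally, signs turned for SLC16A1, -0.053 with centred libraries and -0.26 without control replicate 3 (-0.26 to 0.19 over the left-out libraries). They also turned for SLC16A3, -0.074 with centred libraries and -0.053 without rutaecarpine replicate 1 (-0.053 to 0.11). The causes were not tested. TPM keep no depth, so the counting error of members below 1 TPM is unknown.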
